A study of Mus musculus with 36 samples.

Results

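Lrig1 progeny, the tdTomato+ descendants of Lrig1-expressing cells of the hair follicle (HF), were compared between 4 weeks after a first wound (4w pw1) and unwounded skin (0w), across all genes of the Lrig1 count table. The members are the 3 libraries of 4w pw1 and the 3 libraries of 0w, 6 of the 36 libraries of the series, taken by population and time from the labels. Every library is mini-bulk RNA-seq, full-length cDNA sequencing by a modified Smart-seq2 protocol, of 150 sorted cells from mouse tail epidermis. All mice carried Lrig1-EGFP-ires-CreERT2 and Rosa26-fl/STOP/fl-tdTomato, in which hydroxytamoxifen lets a Cre recombinase driven from the Lrig1 locus switch on the red fluorescent protein tdTomato for good. They received 1 topical dose of hydroxytamoxifen on the tail at 6 to 8 weeks of age, also the 0w mice. The 0w cells were taken 1 week later, without a wound, and the 4w pw1 cells came 4 weeks after a full-thickness punch of 2 mm in the tail. The 4w pw1 mice were therefore 4 weeks older, and their label 4 weeks longer in place, than the 0w mice. No unwounded mice of the later age were in the table, so the wound cannot be told apart from age, hair cycle stage and time since labelling. The sorted zone held both the wound bed and distal HFs, so a library mixes cells that took part in repair with cells that stayed in their follicle.

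Lrig1 is a transmembrane protein that restrains signalling by the epidermal growth factor (EGF) receptor, and it marks stem cells of the junctional zone (JZ), the part of the HF between the sebaceous gland and the infundibulum (INFU). In intact skin these cells supply the INFU, the sebaceous duct and the sebaceous gland. After a wound, their progeny leave the follicle and contribute to the interfollicular epidermis (IFE), where keratinocytes pass through a wound-activated state before they differentiate again. The label is permanent, so the sorted cells are those whose ancestors expressed Lrig1, whatever they express at collection. In such bulk samples, fewer cells of a type and less RNA per cell cannot be told apart.

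The 6 libraries held between 1264142 and 2266757 counts on between 15666 and 16694 genes, and 3 counts, taken as the floor of detection, came to between 1.22 and 2.38 CPM (a gene's counts relative to the library size, with each size adjusted by edgeR's TMM factor). There were no molecular identifiers, so intervals and floors cover counting error only. Across genes, which are not independent replicates, Pearson's r between log2 CPM of libraries ran from 0.663 to 0.727 among the 0w libraries and from 0.772 to 0.786 among those of 4w pw1. The libraries are called here by the numbers of their columns (1, 2 and 3 at 0w; 1, 3 and 4 at 4w pw1), since the labels number the 4w pw1 samples differently and which is which is not known. The labels do not say whether the libraries of a time point came from separate mice, so p-values measure only the spread between libraries. The keratins Krt5 and Krt14, which define basal keratinocytes, were at 3438 to 4505 CPM and 7281 to 12310 CPM at 0w and at 3884 to 4203 CPM and 11678 to 17274 CPM at 4w pw1. Krt79, a keratin of the INFU and sebaceous duct, was at 2839, 3130 and 3033 CPM at 0w and at 727, 4361 and 4220 CPM at 4w pw1, so library 1 of 4w pw1 stood below all others. The same library had the lowest Gata6 (5.10 CPM) and Cst6 (876 CPM) of the 6 and the highest share of counts on mitochondrial genes (8.68%). That share was 4.58% ± 1.24 (SD, n = 3) at 0w and 5.80% ± 2.55 (SD, n = 3) at 4w pw1 (p = 0.6, two-sided exact permutation test, which cannot go below 0.1 with these numbers). Xist, the X-inactivation transcript, was at 116, 2364 and 686 CPM at 0w and 708, 513 and 202 CPM at 4w pw1. The study used mice of both sexes and the labels do not give the sex, so the part of sex in the results was not tested.

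Of 14306 genes tested, 6 rose from 0w to 4w pw1 (0.0419%) and 0 fell. They were Them5, Cyp4f39, Grip1, Gorab, Tent5a and A630052C17Rik. A gene was called where edgeR's quasi-likelihood test gave a Benjamini-Hochberg adjusted p under 0.05 and the log2 fold change exceeded 1 in size. At an unadjusted p under 0.05 there were 573 genes on the higher and 624 on the lower side. The likelihood ratio test of edgeR called 56 higher and 21 lower, DESeq2 called 79 and 39, and limma-voom called 0. The calls changed when single libraries were left out, which also makes a group smaller and changes the filter. Without library 1 or 2 of 0w 0 genes were called, and 0 without library 3 or 4 of 4w pw1. There were 18 without library 3 of 0w and 5 without library 1 of 4w pw1, of which 5 and 3 were among the 6.

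**Figure D1:**
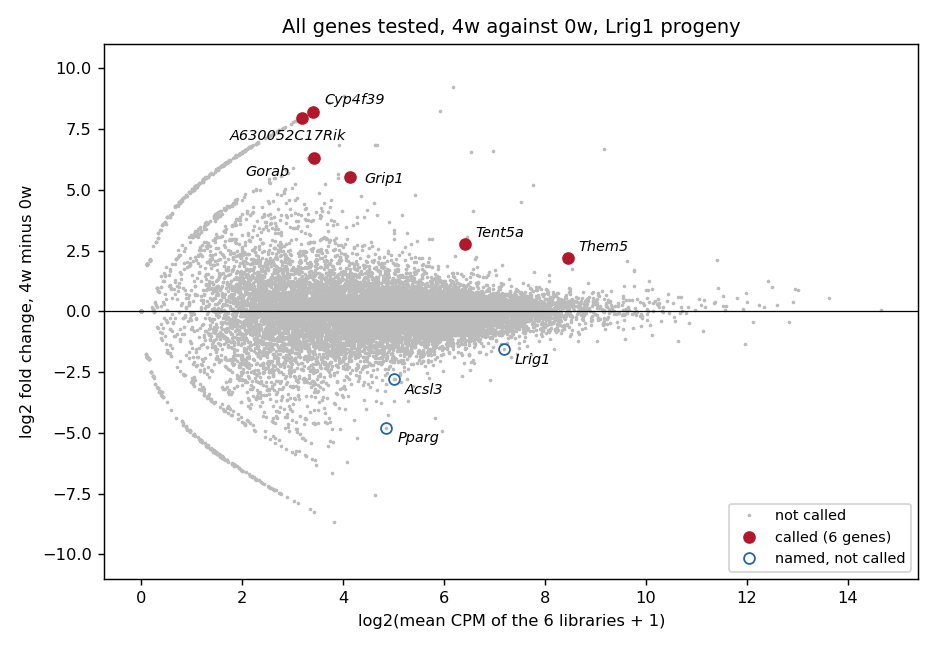
Each point is 1 gene tested; the x axis is log2 of the mean CPM of the 6 libraries plus 1, and the y axis the edgeR log2 fold change, 4w pw1 minus 0w. The 6 called genes are filled red and all lie above 0, while Lrig1, Acsl3 and Pparg, circled, lie below 0 and did not pass the adjusted p.

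Them5 (chr3:94342099-94347352, GRCm38, as all positions here) encodes an acyl-CoA thioesterase of the mitochondrion that acts on long-chain fatty acyl-CoAs. It was at 115, 69.0 and 190 CPM in 0w libraries 1, 2 and 3, and at 474, 575 and 668 CPM in 4w pw1 libraries 1, 3 and 4. The groups did not overlap, and the lowest 4w pw1 library lay well above the highest 0w library. The mean went from 125 ± 61.2 CPM (SD, n = 3) to 573 ± 97.1 CPM (SD, n = 3), a log2 fold change of 2.2 ± 0.33 (SE, adjusted p = 0.0244, edgeR). Its mean was the highest of the 6 time points at 4w pw1, although the 2w pw1 libraries overlapped. The 1w pw1 libraries lay between 215 and 317 CPM, those of 2w pw1 between 406 and 484 CPM and those of 8w pw1 between 163 and 210 CPM. Its level at 4w pw1 was higher than at 8w pw1 (log2 difference 1.56 ± 0.33 SE, adjusted p = 0.0208, edgeR), whereas the differences from 1w pw1 (1.11) and 2w pw1 (0.40) did not pass (adjusted p = 0.372 and 0.944, edgeR). All differences from 8w pw1 belong to a comparison with a trend by GC content. Of the 6 genes it was called under the most alternative settings, 15 of 22, with log2 fold changes from 1.92 to 2.64.

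Cyp4f39 (chr17:32452723-32493320) encodes a cytochrome P450 that hydroxylates the end of very long fatty acids, a step towards the acylceramides of the skin barrier. It had 0 counts in each 0w library and 9.18, 31.9 and 16.7 CPM in 4w pw1 libraries 1, 3 and 4, with 18 to 64 counts per library. Against a floor of 3 counts per 0w library, its mean was at least 12.3-fold higher at 4w pw1 (adjusted p = 0.0244, edgeR). All libraries of 1w pw1 (12.4 to 34.2 CPM) and 2w pw1 (8.82 to 22.0 CPM) also held it, while those of 8w pw1 lay at 1.82, 5.50 and 6.97 CPM. The 8w pw1 difference did not pass the test (log2 difference 2.01, adjusted p = 0.158, edgeR).

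Grip1 (chr10:119453830-120087261) encodes a scaffold protein with several PDZ domains that anchors membrane proteins. It was at 1.03, 0.812 and 0 CPM at 0w, all under the floor, and at 42.8, 29.4 and 25.4 CPM at 4w pw1. The pooled counts were 4 at 0w and 175 at 4w pw1 (log2 fold change 5.52 ± 0.87 SE, adjusted p = 0.0244, edgeR). It kept levels from 23.8 to 40.7 CPM at 8w pw1. Several antisense genes lie within Grip1. The counting options that the study lists hold no strand setting, so their reads cannot be told apart.

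Gorab (chr1:163384908-163403669) encodes a golgin of the Golgi apparatus. It was at 0, 0 and 0.640 CPM at 0w, where 1 read was counted in all, and at 24.5, 12.4 and 20.7 CPM at 4w pw1. The ratio of the pooled counts, 1 against 99, was 113 with an exact 95% interval from 19.8 to 4512 (log2 fold change 6.31 ± 1.06 SE, adjusted p = 0.0396, edgeR). At 8w pw1 its 3 libraries lay at 23.3, 48.9 and 55.7 CPM, overlapping the levels at 4w pw1.

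Tent5a (chr9:85320439-85327348) encodes a poly(A) polymerase that lengthens the tails of certain mRNAs. It was at 18.5, 21.5 and 25 CPM at 0w and at 181, 84.1 and 176 CPM at 4w pw1. Every 4w pw1 library lay above every 0w library, and the mean went from 21.7 ± 3.25 to 147 ± 54.5 CPM (SD, n = 3 each; log2 fold change 2.76 ± 0.47 SE, adjusted p = 0.045, edgeR). Its levels at 1w pw1 (102 to 238 CPM), 2w pw1 (67.9 to 245 CPM) and 8w pw1 (92.8 to 127 CPM) overlapped those of 4w pw1. The non-coding A630052C17Rik (chr11:29170909-29173558), named here after its values were seen, had 0 counts in each 0w library and 13.8, 17.9 and 16.7 CPM at 4w pw1, at least 10.3-fold higher. It lies within Ppp4r3b on the opposite strand, so the same doubt about strand applies.

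**Figure D2:**
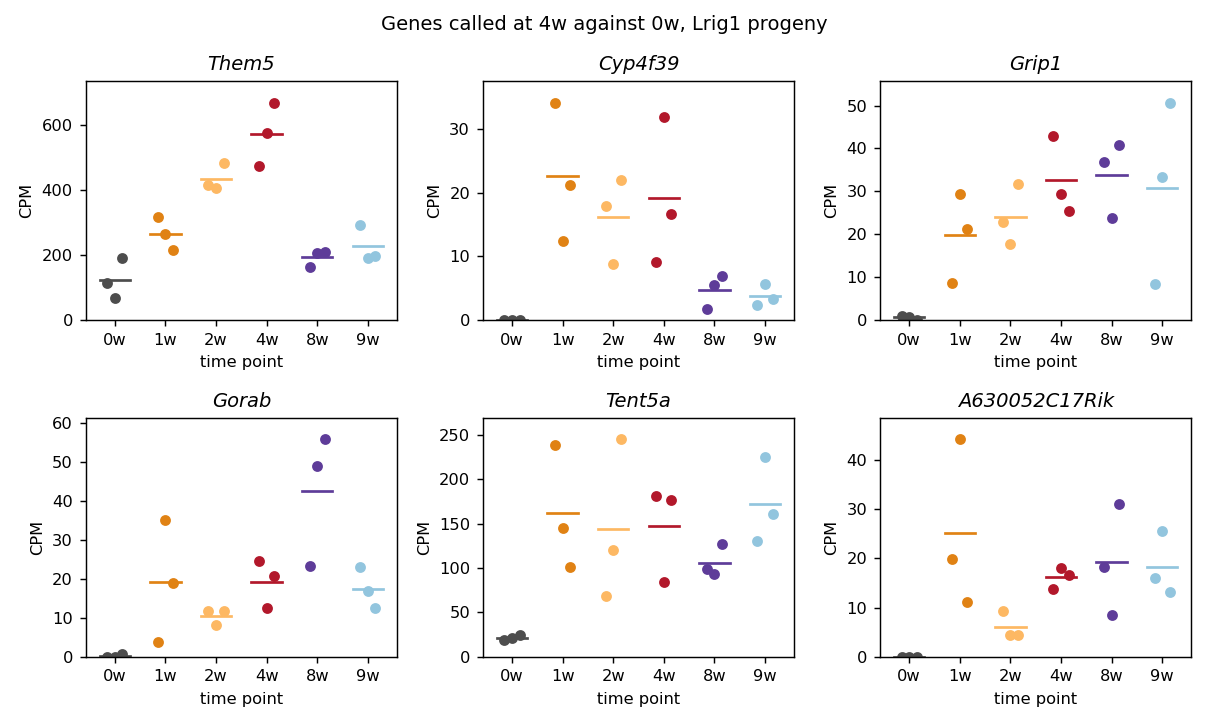
Points are CPM of single libraries (linear y axes from 0) at the 6 time points of Lrig1 progeny (x axis; 9w is 1 week after a second wound made at 8w), and bars are means of 3 libraries. In all 6 genes the 4w libraries lie above the 0w libraries; Them5 has its highest mean at 4w, and in the other 5 genes the 1w libraries overlap those of 4w.

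The windows before the start of Them5, Cyp4f39 and Gorab are shown because these genes rose and have 1 RefSeq start each. The 250 bases upstream of each start come from RefSeq (GRCm38.p6), and no exon of GENCODE M21 overlaps them. Capitals mark the letters TATAAA and CCAAT, searched on both strands.
Them5, chr3:94341849-94342098, plus strand: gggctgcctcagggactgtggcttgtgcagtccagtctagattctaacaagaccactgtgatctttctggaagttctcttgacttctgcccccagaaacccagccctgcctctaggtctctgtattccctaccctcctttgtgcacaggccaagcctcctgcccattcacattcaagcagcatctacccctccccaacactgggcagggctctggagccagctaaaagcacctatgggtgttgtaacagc
Cyp4f39, chr17:32452473-32452722, plus strand: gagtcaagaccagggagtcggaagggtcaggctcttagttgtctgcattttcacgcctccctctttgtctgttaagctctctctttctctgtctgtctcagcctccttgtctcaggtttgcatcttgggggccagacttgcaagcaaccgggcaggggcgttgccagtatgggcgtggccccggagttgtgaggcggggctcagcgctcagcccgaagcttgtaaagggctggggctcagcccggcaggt
Gorab, chr1:163403670-163403919, minus strand: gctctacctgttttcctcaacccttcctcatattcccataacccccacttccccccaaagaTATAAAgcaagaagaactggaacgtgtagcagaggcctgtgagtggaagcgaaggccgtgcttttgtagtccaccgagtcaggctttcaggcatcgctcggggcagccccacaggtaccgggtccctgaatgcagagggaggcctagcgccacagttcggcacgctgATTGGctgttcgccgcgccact
The CCAAT letters (ATTGG on the strand shown) begin 22 bases before the start of Gorab and the TATAAA letters 189 bases before it. Of all 32851 windows of this kind, 33.9% hold CCAAT and 12.4% hold TATAAA. The letters TGANTCA, a site of AP-1 factors, were found in none of these 3 windows and in 6.75% of all windows.

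Genes just short of the adjusted threshold are given as values. Rab31, a small GTPase of endosome and Golgi traffic, was at 0, 1.62 and 3.20 CPM at 0w and at 31.6, 24.9 and 27.8 CPM at 4w pw1 (log2 fold change 4.13 ± 0.73 SE, adjusted p = 0.0528, edgeR). It was called under 8 of 22 alternative settings. Wfdc17, a secreted WAP-domain protein, was at 12.8, 19.1 and 0 CPM at 0w and at 56.1, 569 and 2792 CPM at 4w pw1, so the 4w pw1 libraries differed far more among themselves than the 0w libraries did. Its adjusted p was 0.0614 (edgeR). Fam162a, a mitochondrial protein induced by hypoxia, was at 178, 115 and 218 CPM at 0w and at 712, 476 and 510 CPM at 4w pw1, with no overlap (log2 fold change 1.73 ± 0.35 SE, adjusted p = 0.126, edgeR).

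Mmp3, Sprr2a3 and Serpinb3d, genes of matrix breakdown and cornification, also fell just short, and all were near 0 before the wound. Mmp3, the matrix protease stromelysin-1, had 0 counts in every 0w library and 44.9, 18.4 and 9.54 CPM at 4w pw1, at least 15.6-fold higher (adjusted p = 0.08, edgeR). Sprr2a3, a small proline-rich protein of the cornified envelope, was at 0, 4.47 and 0.640 CPM at 0w and at 10.2, 339 and 197 CPM at 4w pw1 (adjusted p = 0.0869, edgeR). Serpinb3d, a protease inhibitor of stratified epithelia, was at 1.03, 0 and 0 CPM at 0w and at 16.8, 16.9 and 108 CPM at 4w pw1, a ratio of pooled counts of 116 (exact 95% interval 31.7 to 964; adjusted p = 0.103, edgeR). Sprr2a3 and Serpinb3d have near-identical neighbours of the same family, so the split of reads among these copies is uncertain.

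On the lower side Acsl3, Lrig1, Iqce, Pparg and Tle1 were among the genes of smallest p, and none passed. Acsl3, a long-chain acyl-CoA synthetase of the endoplasmic reticulum and lipid droplets, was at 78.5, 39.0 and 45.5 CPM at 0w and at 8.16, 6.47 and 8.74 CPM at 4w pw1 (log2 fold change -2.80 ± 0.55 SE, adjusted p = 0.103, edgeR). Its 4w pw1 libraries were the lowest of all 18, and its level was lower at 4w pw1 than at 8w pw1 (log2 difference -2.65, adjusted p = 0.0207, edgeR). Tle1, a transcriptional corepressor, likewise did not overlap, with 80.6, 108 and 51.2 CPM at 0w and 11.2, 18.4 and 21.5 CPM at 4w pw1 (adjusted p = 0.186, edgeR).

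Lrig1 itself, whose locus drives the label in all mice, was at 224, 244 and 183 CPM at 0w and at 46.9, 80.7 and 93.0 CPM at 4w pw1. The groups did not overlap, with means of 217 ± 30.8 and 73.5 ± 23.9 CPM (SD, n = 3 each; log2 fold change -1.56 ± 0.34 SE, adjusted p = 0.165, edgeR). Every library of 1w pw1 (89.4 to 155 CPM), 2w pw1 (81.1 to 132 CPM) and 8w pw1 (74.3 to 124 CPM) also lay below every 0w library. Pparg, the nuclear receptor that drives sebocyte and adipocyte differentiation, was at 109, 36.1 and 17.3 CPM at 0w and at 2.55, 1.49 and 1.59 CPM at 4w pw1, where 10 counts were left in all (adjusted p = 0.165, edgeR). Its 0w libraries differed widely among themselves, but each lay above every library of 1w pw1, 2w pw1 and 4w pw1. In the annotation Lrig1 overlaps Slc25a26, Acsl3 overlaps Utp14b, Fam162a overlaps Wdr5b, and Pparg and Tle1 have antisense genes, so their counts carry the same doubt about strand.

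Across the gene lists, a share of members with all 3 libraries of 4w pw1 above all 3 of 0w is read against 5.50% of all genes tested, and below against 5.14%. The median log2 fold change of all genes tested was -0.03, and -0.11 with the GC trend of each library removed. Apart from Cyp4f39, no member of any list passed the test between 0w and 4w pw1, so the lists are described by medians and by this separation. Gene lists and medians are descriptive, with no test.

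Wound-activated keratinocyte genes, the keratins, alarmins, small proline-rich proteins and cytokines that injured epidermis switches on, held 0 of 21 that passed. Of these, 16 had a positive log2 fold change, 2 (9.52%) lay above without overlap and 0 below, and single members ran from -1.86 to 8.85. The median was 0.62, or 0.50 with the genes that had 0 counts in a group set at their bound, and from 0.33 to 1.33 when each of the 6 libraries was left out. Krt6a was at 540, 657 and 621 CPM at 0w and at 597, 931 and 531 CPM at 4w pw1, against 1680 to 3203 CPM at 1w pw1. Krt16 was at 79.6, 50.8 and 236 CPM at 0w and at 79.5, 251 and 159 CPM at 4w pw1, against 482 to 2107 CPM at 1w pw1. Both keratins thus overlapped their unwounded levels at 4w pw1, and all their 1w pw1 libraries lay above those of 4w pw1 (log2 difference 4w minus 1w -1.96 for Krt6a and -3.16 for Krt16, adjusted p = 0.293 for each, edgeR). Krt6b overlapped 0w in the same way (log2 fold change 0.66, adjusted p = 0.85, edgeR), and at 8w pw1 it was lower than at 4w pw1 (log2 difference 4w minus 8w 2.56, adjusted p = 0.0407, edgeR). Krt17 ranged from 1242 to 5620 CPM at 4w pw1 and from 2028 to 4179 CPM at 0w.

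The alarmin S100a8, a calcium-binding protein released by stressed keratinocytes, was chosen for naming after its values were seen. It was at 0, 0.812 and 0 CPM at 0w and at 221, 70.7 and 65.2 CPM at 4w pw1, with 2 pooled counts against 658, a ratio of 376 (exact 95% interval 104 to 3110; adjusted p = 0.186, edgeR). Tslp, an epithelial cytokine of allergic inflammation, and Car2 are in none of the lists and were also named afterwards. Tslp was at 0, 0 and 1.28 CPM at 0w and at 79.5, 38.8 and 27.0 CPM at 4w pw1, a ratio of pooled counts of 153 (exact 95% interval 42.0 to 1271; adjusted p = 0.233, edgeR). Both sets lay far apart with no overlap, but the spread within 4w pw1 was wide. Car2, a carbonic anhydrase, was at 0, 33.7 and 12.2 CPM at 0w and at 558, 376 and 113 CPM at 4w pw1 (log2 fold change 4.48 ± 0.94 SE, adjusted p = 0.148, edgeR). Stfa1, a cysteine protease inhibitor, was at 2.05, 5.28 and 58.9 CPM at 0w and at 184, 134 and 130 CPM at 4w pw1 (adjusted p = 0.419, edgeR).

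**Figure D3:**
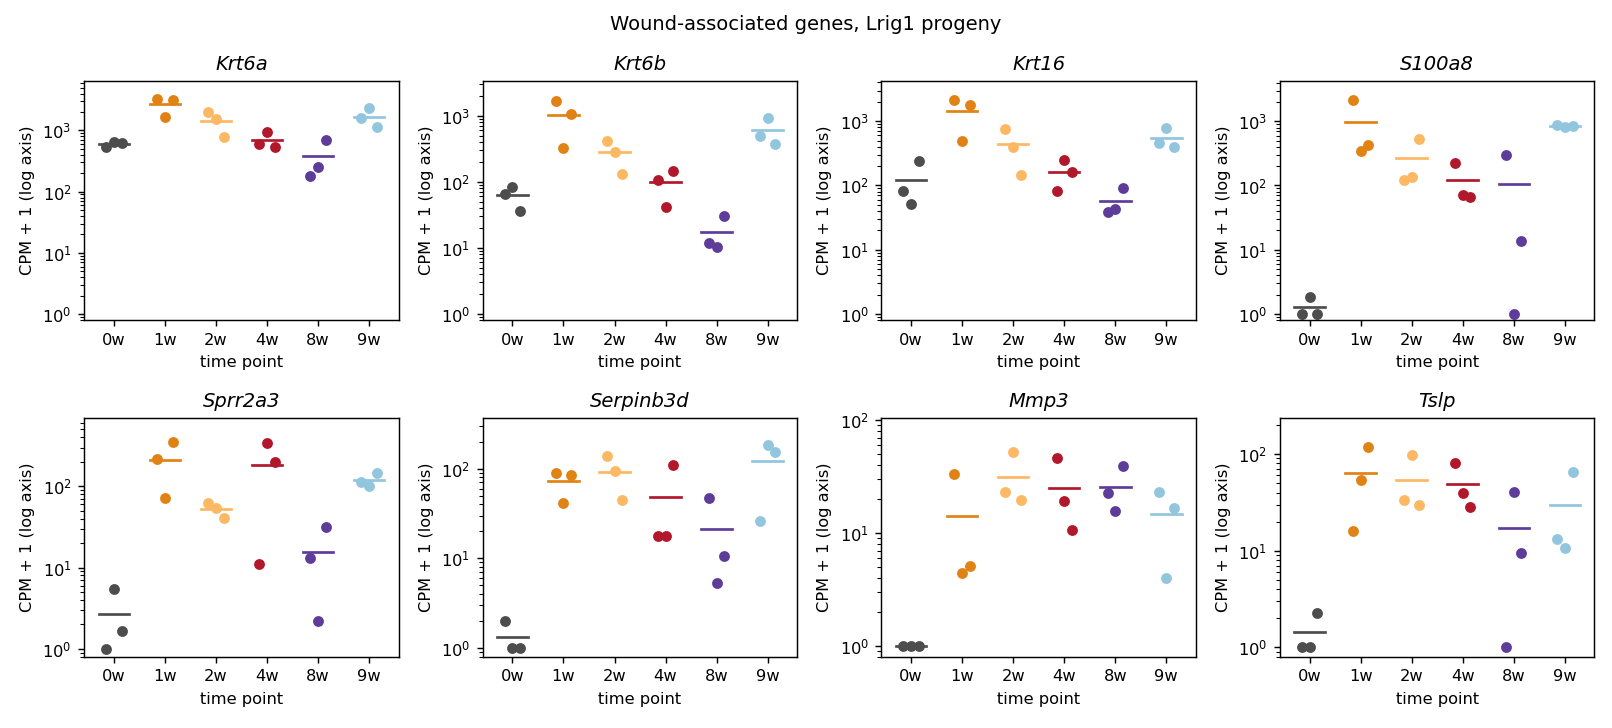
Points are CPM plus 1 of single libraries (log y axes) at the 6 time points (x axis), and bars are means of 3 libraries. Krt6a, Krt6b and Krt16 at 4w overlap 0w, whereas S100a8, Sprr2a3, Serpinb3d, Mmp3 and Tslp lie above 0w in all 3 libraries of 4w.

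Interfollicular differentiation genes, which mark suprabasal keratinocytes, leaned higher at 4w pw1. Of 32 tested, 0 passed, 28 had a positive log2 fold change, 3 (9.38%) lay above without overlap and 1 (3.12%) below, with a median of 0.81 that ran from 0.53 to 1.47 when each library was left out. Krt10, a keratin of the spinous layer, was at 1552, 4384 and 10519 CPM at 0w and at 4876, 14503 and 11674 CPM at 4w pw1. Its groups overlapped, since library 3 of 0w was above library 1 of 4w pw1 (log2 fold change 0.92, adjusted p = 0.654, edgeR). Krt1, its partner keratin, overlapped likewise, with 1127 to 5794 CPM at 0w and 3570 to 13419 CPM at 4w pw1 (adjusted p = 0.526, edgeR), and was higher at 4w pw1 than at 8w pw1 (log2 difference 2.31, adjusted p = 0.021, edgeR). Mt4, a metallothionein of differentiating keratinocytes, was at 105, 221 and 591 CPM at 0w and at 441, 2074 and 1340 CPM at 4w pw1 (adjusted p = 0.419, edgeR). Fabp5, the epidermal fatty acid binding protein, was at 384, 112 and 770 CPM at 0w and at 793, 1603 and 1566 CPM at 4w pw1, with no overlap (adjusted p = 0.526, edgeR). All 1w pw1 libraries of Fabp5, from 2066 to 5279 CPM, lay higher still.

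The tail scale keratins, which mark the parakeratotic scales between tail follicles, were set by 1 library. Krt36 was at 31.8, 2.03 and 0 CPM at 0w and at 21.9, 20.4 and 1219 CPM at 4w pw1, and Krt84 was at 6.67, 0.812 and 0 CPM at 0w and at 3.57, 0.996 and 740 CPM at 4w pw1. Library 4 of 4w pw1 alone held the high values. The median of the 3 tested members was 5.20 and came to 0.65 without that library.

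The hair follicle bulge and germ genes leaned lower, more than any other list of 12 or more members. Of 24 tested, 0 passed, 6 had a positive log2 fold change, 9 (37.5%) lay below without overlap and 0 above. Their median was -0.98, from -1.05 to -1.0 under 3 other scalings and from -1.20 to -0.70 when each library was left out. Sox9, a transcription factor of follicle stem cells, was at 2264, 1221 and 934 CPM at 0w and at 491, 771 and 967 CPM at 4w pw1, overlapping only through library 4 of 4w pw1 (log2 fold change -0.99, adjusted p = 0.542, edgeR). Nfatc1, a transcription factor that holds bulge stem cells in quiescence, was at 688, 506 and 448 CPM at 0w and at 225, 396 and 400 CPM at 4w pw1 (adjusted p = 0.634, edgeR). Cxcl14, a chemokine of the follicle, was at 459, 671 and 304 CPM at 0w and at 276, 294 and 180 CPM at 4w pw1 (adjusted p = 0.659, edgeR).

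Other bulge and germ members were named after their values were seen, so their direction adds nothing to the counts above. Tcf7l2, Lhx2 and Grem1 were picked from those below. Of the 6 members with a positive log2 fold change, Wif1 (3.87, adjusted p = 0.714, edgeR) and Krt24 (1.61, adjusted p = 0.71, edgeR) had the largest. Both overlapped, with means of 0.54 and 58.2 CPM at 0w and 9.8 and 177 CPM at 4w pw1. Tcf7l2, a Wnt effector of the TCF family, was at 385, 214 and 184 CPM at 0w and at 134, 103 and 139 CPM at 4w pw1 (log2 fold change -1.06, adjusted p = 0.424, edgeR). Lhx2, a LIM homeobox factor of follicle stem cells, was at 41.6, 123 and 30.7 CPM at 0w and at 11.2, 18.4 and 13.5 CPM at 4w pw1 (adjusted p = 0.623, edgeR). Grem1, a secreted BMP antagonist, was at 121, 14.2 and 7.69 CPM at 0w and at 0.510, 0 and 0 CPM at 4w pw1, with library 1 of 0w far above the rest (adjusted p = 0.407, edgeR). Lgr5, a stem cell marker of the lower HF, had a lower mean but overlapped, with 51.3, 97.1 and 264 CPM at 0w and 64.8, 5.97 and 51.7 CPM at 4w pw1. Against 1w pw1 and 2w pw1 the list median was 0.20 and -0.04.

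Junctional zone and infundibulum genes, the home compartment of the labelled cells, were mixed. Of 20 tested, 0 passed, 9 had a positive log2 fold change, 5 (25%) lay below without overlap and 0 above, with a median of -0.45 (from -0.84 to -0.06 when each library was left out). Besides Lrig1, the secreted antagonists Fst and Sostdc1 were among those below. Fst, an activin inhibitor, was at 135, 151 and 94.2 CPM at 0w and at 60.2, 34.9 and 69.1 CPM at 4w pw1 (adjusted p = 0.537, edgeR). Sostdc1, a Wnt and BMP inhibitor, was at 1059, 1032 and 1058 CPM at 0w and at 858, 392 and 729 CPM at 4w pw1 (log2 fold change -0.67, adjusted p = 0.556, edgeR). Of the 9 members with a positive log2 fold change, Teddm3 (2.10, adjusted p = 0.54, edgeR) and Krt23 (1.77, adjusted p = 0.88, edgeR) had the largest. Ly6a (0.81, adjusted p = 0.54, edgeR) had the smallest p of them. All of these overlapped, and the mean of Ly6a was 312 CPM at 0w and 546 CPM at 4w pw1. Gata6, a transcription factor of the sebaceous duct lineage, was at 85.7, 112 and 46.8 CPM at 0w and at 5.10, 51.8 and 39.7 CPM at 4w pw1, which overlapped. The abundant members Cst6, an inhibitor of cathepsins in the cornifying layers, and Aqp3, a glycerol and water channel, also overlapped, and Cst6 ranged from 876 to 7168 CPM at 4w pw1. Library 1 of 4w pw1, low for Krt79, Cst6 and Gata6, also had the highest mitochondrial share, and the part of that share in these values was not tested.

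Among sebaceous and epidermal lipid genes, 1 of 32 rose, the barrier gene Cyp4f39, and 0 fell. A positive log2 fold change was found for 12, while 3 (9.38%) lay below without overlap, with a median of -0.41 (from -0.57 to -0.17 when each library was left out). Pparg was 1 of the 3. Far2, which makes fatty alcohols for sebum waxes, was at 203, 122 and 80.7 CPM at 0w and at 16.3, 0 and 77.9 CPM at 4w pw1, separated by a narrow gap (adjusted p = 0.647, edgeR). Scd1, the stearoyl-CoA desaturase abundant in sebocytes, overlapped, with 570, 153 and 286 CPM at 0w and 315, 118 and 107 CPM at 4w pw1. Mgst1, a membrane glutathione transferase, was at 1495 CPM in library 1 of 0w and at 265 to 423 CPM in the other 5 libraries.

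**Figure D4:**
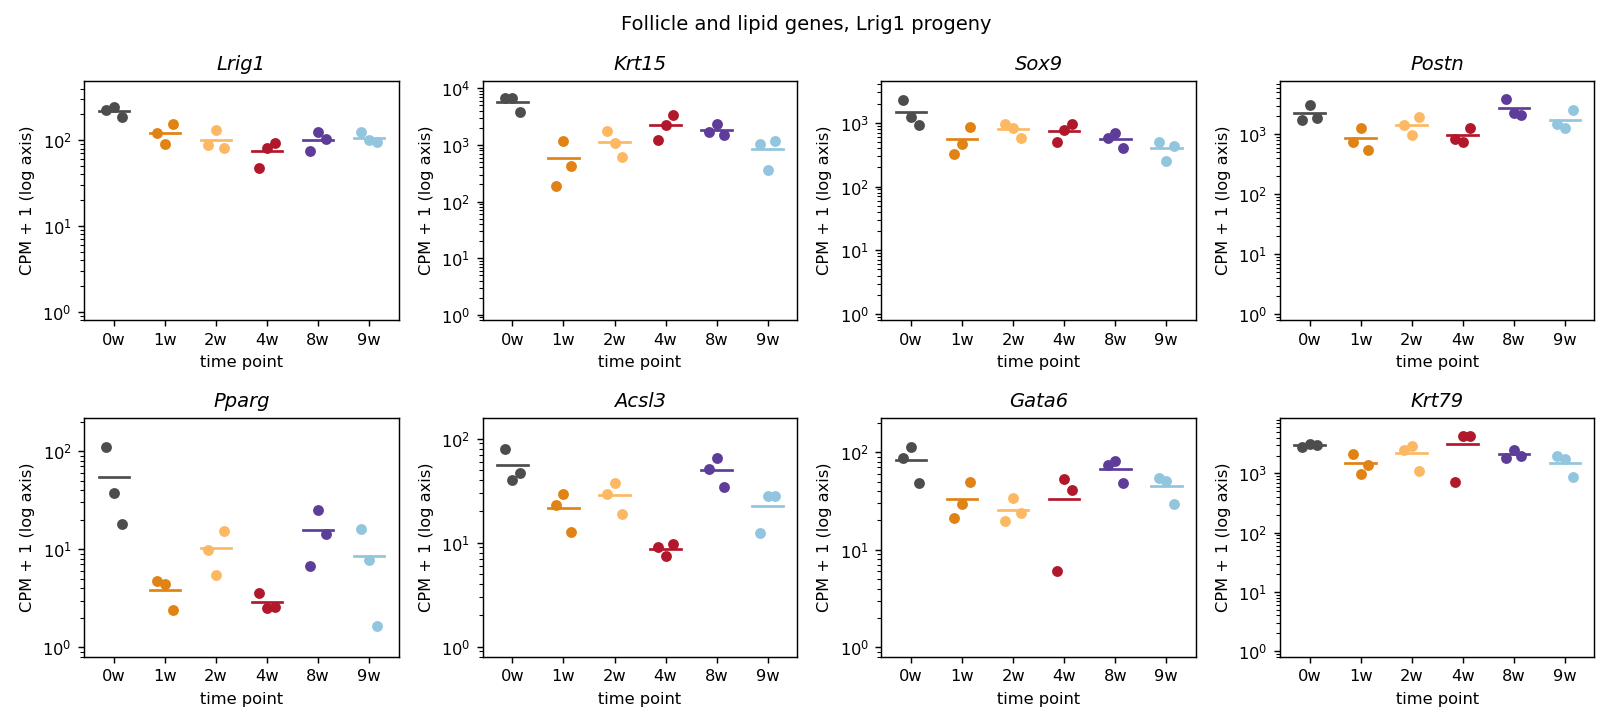
Points are CPM plus 1 of single libraries (log y axes) at the 6 time points (x axis), and bars are means of 3 libraries. Lrig1, Krt15, Postn, Pparg and Acsl3 at 4w lie below all 0w libraries, while Sox9, Gata6 and Krt79 overlap.

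Basal keratinocyte and basement membrane genes held 0 of 24 passing, with 3 (12.5%) below without overlap and a median of -0.20, which turned to 0.05 without library 2 of 0w. The 3 were Krt15, a keratin of follicle stem cells and of basal cells, Postn, a matricellular protein, and Lamb3, a chain of laminin-332. The study uses Postn as a marker of the INFU, although it is not in the junctional zone and infundibulum list here. Krt15 was at 6750, 6709 and 3863 CPM at 0w and at 1205, 2210 and 3363 CPM at 4w pw1 (log2 fold change -1.35 ± 0.58 SE, adjusted p = 0.553, edgeR). All 1w pw1 libraries of Krt15, from 186 to 1189 CPM, lay below those of 4w pw1, so 4w pw1 was intermediate. Postn was at 1751, 3070 and 1888 CPM at 0w and at 852, 754 and 1264 CPM at 4w pw1 (adjusted p = 0.419, edgeR) and was lower at 4w pw1 than at 8w pw1 (log2 difference -1.52, adjusted p = 0.0376, edgeR). Lamb3 was at 190, 344 and 216 CPM at 0w and at 155, 121 and 134 CPM at 4w pw1 (adjusted p = 0.478, edgeR). Krt14 and Krt5, the abundant basal keratins, overlapped (log2 fold change 0.53 and 0.08).

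Immediate early and AP-1 genes, the transcription factors that respond first to stress and growth signals, leaned lower. Of 32 tested, 0 passed, 9 had a positive log2 fold change, 5 (15.6%) lay below without overlap and 1 (3.12%) above, with a median of -0.43 (from -0.55 to -0.29 when each library was left out). Fosl2, an AP-1 subunit, was at 263, 359 and 320 CPM at 0w and at 169, 154 and 210 CPM at 4w pw1 (log2 fold change -0.82, adjusted p = 0.419, edgeR), and it was lower at 4w pw1 than at 8w pw1 (log2 difference -1.25, adjusted p = 0.0195, edgeR). Egr3, a zinc finger factor of the early growth response family, was at 119, 56.8 and 51.2 CPM at 0w and at 13.3, 42.8 and 20.7 CPM at 4w pw1 (adjusted p = 0.536, edgeR). Junb, another AP-1 subunit, overlapped, with 281 to 355 CPM at 0w and 208 to 380 CPM at 4w pw1. Klf5, a factor of proliferating and wounded epithelium, was the member above, at 91.4, 250 and 240 CPM at 0w and 304, 393 and 325 CPM at 4w pw1 (adjusted p = 0.553, edgeR). Of the 9 members with a positive log2 fold change, Fosl1, a further AP-1 subunit, had the largest. Its groups overlapped, with a mean of 0 CPM at 0w and 11.3 CPM at 4w pw1 (adjusted p = 0.465, edgeR).

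Genes of migration, proteases and the cytoskeleton held 0 of 45 passing, with 3 (6.67%) above, 4 (8.89%) below and a median of 0.19. Beside Mmp3, Gja1 and Tpm4 were those above. Gja1, the gap junction protein connexin 43, was at 150, 94.2 and 181 CPM at 0w and at 530, 407 and 250 CPM at 4w pw1 (log2 fold change 1.48 ± 0.38 SE, adjusted p = 0.309, edgeR). Tpm4, an actin-binding tropomyosin, was at 273, 93.8 and 173 CPM at 0w and at 359, 333 and 321 CPM at 4w pw1 (adjusted p = 0.526, edgeR). Snai2, a repressor that loosens epithelial adhesion, lay below, at 400, 285 and 186 CPM at 0w and 173, 29.4 and 123 CPM at 4w pw1 (adjusted p = 0.497, edgeR). Among 30 junction and polarity genes 0 passed and 1 (3.33%) lay below, the planar cell polarity gene Vangl2, at 74.4, 169 and 142 CPM at 0w and 49.0, 56.8 and 64.4 CPM at 4w pw1 (adjusted p = 0.419, edgeR).

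For signalling, 0 of 24 Wnt pathway genes passed and 3 (12.5%) lay below, with a median of -0.27. Rnf43, a feedback inhibitor that removes Wnt receptors, was at 36.4, 72.3 and 68.5 CPM at 0w and at 21.4, 24.4 and 14.3 CPM at 4w pw1 (adjusted p = 0.454, edgeR). Lgr4, an R-spondin receptor, overlapped and was lower at 4w pw1 than at 8w pw1 (log2 difference -2.24, adjusted p = 0.018, edgeR). Of 12 Notch pathway genes 0 passed, with 1 (8.33%) above and 2 (16.7%) below, and Notch1, the main receptor of the epidermis, was at 1234, 1077 and 1153 CPM at 0w and at 752, 593 and 960 CPM at 4w pw1 (adjusted p = 0.705, edgeR). The TGF-beta and BMP list (24 tested, median 0.05, which turned negative under 2 of 3 other scalings) and the EGF receptor and ERK feedback list (15 tested, median -0.33) held 0 genes that passed. In the second, 0 members were separated in either direction. Of 19 interferon and antigen presentation genes 0 passed, with 1 (5.26%) above and 1 (5.26%) below.

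Glycolysis and hypoxia genes leaned higher. Of 28 tested, 0 passed, 19 had a positive log2 fold change, 4 (14.3%) lay above without overlap and 0 below, with a median of 0.35 (from 0.20 to 0.56 when each library was left out). Ldha, which turns pyruvate into lactate, was at 545, 421 and 527 CPM at 0w and at 980, 932 and 1152 CPM at 4w pw1. Its groups were tight and did not overlap (498 ± 67.0 against 1021 ± 115 CPM, SD, n = 3 each; log2 fold change 1.04 ± 0.27 SE, adjusted p = 0.316, edgeR). Pfkl, the liver-type phosphofructokinase, was at 13.9, 15.8 and 19.2 CPM at 0w and at 51.5, 74.7 and 101 CPM at 4w pw1 (log2 fold change 2.21 ± 0.51 SE, adjusted p = 0.186, edgeR). Slc16a3, a lactate exporter, was at 0.513, 0 and 0.640 CPM at 0w and at 3.06, 11 and 6.36 CPM at 4w pw1 (adjusted p = 0.332, edgeR). Slc2a1, the glucose transporter GLUT1, was at 110, 208 and 145 CPM at 0w and at 264, 417 and 157 CPM at 4w pw1, which overlapped, against 739 to 991 CPM at 1w pw1. Apart from Ldha, these members were picked from those with a higher mean at 4w pw1. Of the members with a negative log2 fold change, Pfkfb3 (-4.08, adjusted p = 0.56, edgeR) and P4ha2 (-1.34, adjusted p = 0.759, edgeR) had the lowest. Both overlapped, with means of 4.06 and 18.9 CPM at 0w and 0.17 and 7.41 CPM at 4w pw1. The list median against 1w pw1 was -0.59.

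The cytoplasmic ribosomal protein genes held 0 of 75 passing, 62 with a positive log2 fold change and 10 (13.3%) above without overlap, with a median of 0.21 (from 0.13 to 0.28 when each library was left out). The mitochondrially encoded protein genes held 0 of 13 passing, all 13 positive and 3 (23.1%) above, with a median of 0.61, or 0.29 under another scaling. Of these, mt-Co1, a subunit of cytochrome c oxidase, was at 4148, 3476 and 3930 CPM at 0w and at 13916, 4810 and 4567 CPM at 4w pw1, where library 1 again stood apart. The nuclear genes of oxidative phosphorylation centred near 0 (50 tested, 0 passed, median 0.04).

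Cell cycle genes (38 tested, median -0.04), antioxidant genes (28 tested, median 0.06), endoplasmic reticulum stress genes (25 tested, median 0.33), heat shock genes (13 tested, median 0.20) and hair shaft and inner root sheath genes (16 tested, median -0.28) held 0 that passed. In the cell cycle list 4 (10.5%) lay above and 1 (2.63%) below. Leaving out 1 library turned the median positive for the hair shaft list (1.53 without library 3 of 0w), the junction list (0.13 without library 2 of 0w), the EGF receptor list (0.36 without library 2 of 0w) and the cell cycle list (0.31 without library 1 of 0w), and moved those of the Notch, TGF-beta, interferon, migration, antioxidant and nuclear oxidative phosphorylation lists to or across 0. Polycomb and H2A ubiquitin genes, which set and remove a repressive chromatin mark, had 0 of 30 passing and 10 with a positive log2 fold change. In this list 2 (6.67%) lay above and 2 (6.67%) below, with a median of -0.30. Usp16, an H2A deubiquitinase, was above, at 114, 130 and 182 CPM at 0w and 239, 224 and 354 CPM at 4w pw1 (log2 fold change 0.94 ± 0.30 SE, adjusted p = 0.424, edgeR). Jarid2, a cofactor of polycomb complex recruitment and named after its values were seen, was at 12.3, 30.5 and 29.5 CPM at 0w and at 50.0, 102 and 59.6 CPM at 4w pw1 (adjusted p = 0.423, edgeR). Mysm1 and Asxl2, with Usp16 the 3 most abundant members, leaned the other way. Their ratios of pooled counts, 4w pw1 to 0w, were 0.78 and 0.70.

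**Figure D5:**
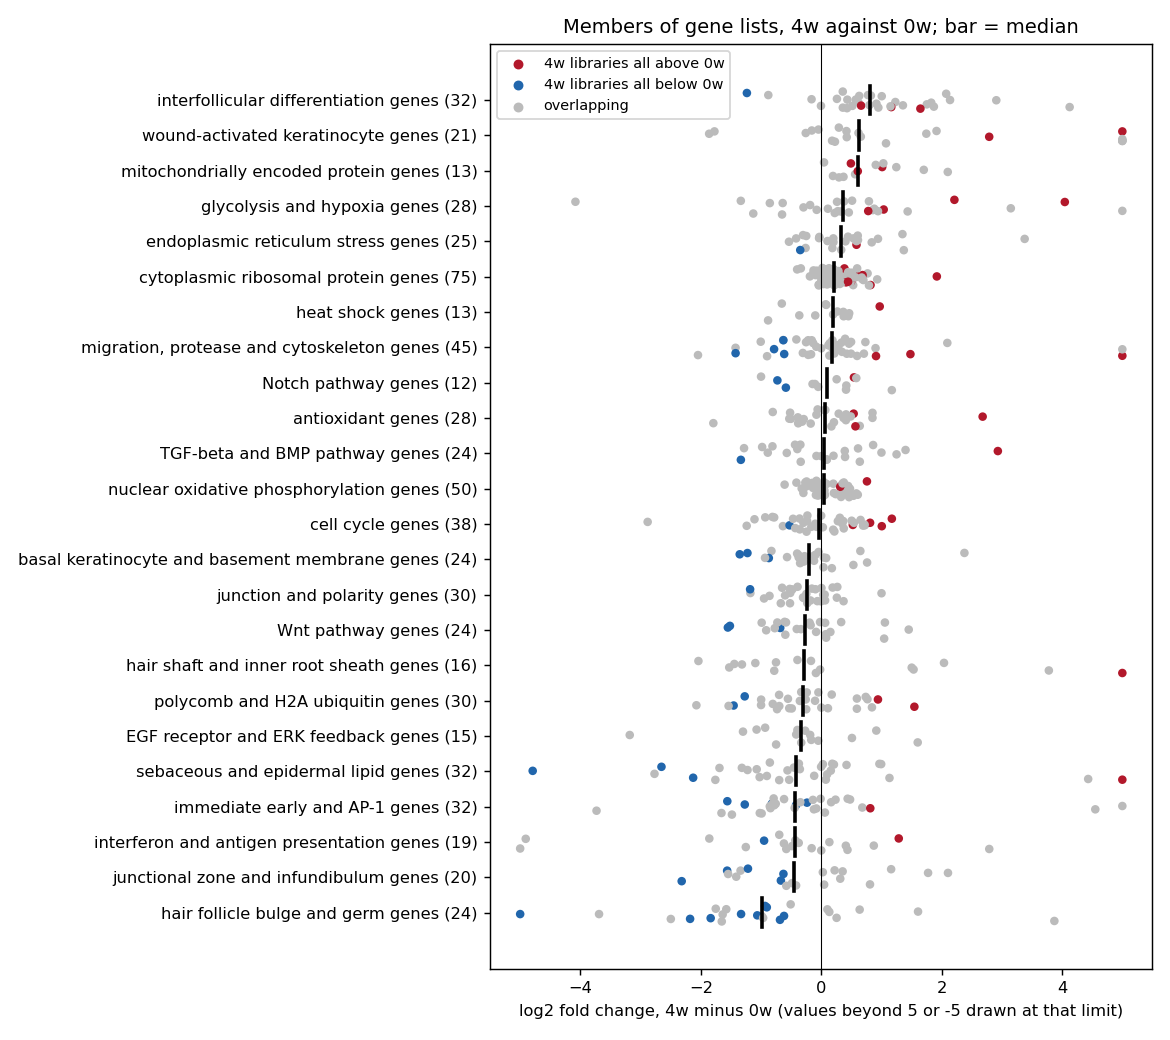
Each point is a tested member of a gene list (rows, with the number tested); the x axis is the log2 fold change, 4w pw1 minus 0w, with values beyond 5 or -5 drawn at that limit, and black bars are medians. Red and blue points are members whose 4w libraries all lie above or all below those of 0w; the bulge and germ list has the lowest median (-0.98) and the differentiation list the highest (0.81) of the lists drawn.

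Markers of other cell types were low in all 6 libraries. Of 17 Langerhans and immune markers 6 were in the table and summed to between 0 and 4.11 CPM per library at 0w and between 6.97 and 21.9 CPM at 4w pw1, and Cd74 and H2-Ab1, defining genes of antigen-presenting cells, were at 0 in all 0w libraries and in library 3 of 4w pw1. The sums did not overlap between the groups, and their part in Wfdc17 and S100a8, which myeloid cells also express, was not tested. H2-Eb1, another antigen presentation gene of the list, was at 2.57, 0.406 and 0 CPM at 0w and at 6.12, 6.97 and 0 CPM at 4w pw1, so each 4w pw1 library held at least 1 of these markers. The 8 fibroblast markers in the table, of 12, summed to 44.1 to 164 CPM at 0w and 13.9 to 82.7 CPM at 4w pw1, and Col1a1 was at 0 at 4w pw1. The melanocyte markers (5 of 8) summed to 7.05 to 22.3 and 4.59 to 23.0 CPM, the endothelial and muscle markers (5 of 10) to 6.16 to 9.61 and 2.99 to 10.3 CPM, and the Merkel cell markers (4 of 7) to 11.3 to 18.7 and 4.98 to 9.69 CPM.

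Against the earlier times after the wound, the main test called no gene at 4w pw1. Some genes still did not overlap, such as Krt6a, Krt16, Fabp5 and Krt15 against 1w pw1. The share of such genes at these times was not counted. Of 14306 genes, 0 (0%) were called by edgeR's quasi-likelihood test between 4w pw1 and 1w pw1 (smallest adjusted p = 0.211), with 1211 at an unadjusted p under 0.05. The likelihood ratio test called 47, DESeq2 114 and limma-voom 1. Between 4w pw1 and 2w pw1 the same test called 0 (0%, smallest adjusted p = 0.12), with 755 at an unadjusted p under 0.05, and the likelihood ratio test called 8, DESeq2 13 and limma-voom 0. Among lists with 12 or more genes tested, the wound-activated genes had the lowest median log2 difference, 4w minus 1w (-1.07), and the interfollicular differentiation genes the highest (1.27). Wfdc17, unlike the wound keratins, had all its 1w pw1 libraries, at 15.2 to 21.5 CPM, below those of 4w pw1 (log2 difference 5.90, adjusted p = 0.211, edgeR).

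Against 8w pw1, 274 genes were higher (1.92%) and 253 lower (1.77%) at 4w pw1. In the same edgeR fit, scaling by library totals gave 550 and 178, and edgeR's RLE size factors in place of TMM gave 212 and 299. This comparison moved with the base composition of transcripts: with genes in 5 bins of equal size by GC content, the median log2 difference ran from -1.12 in the lowest bin to 0.64 in the highest, against 0.02 to -0.08 for 4w pw1 minus 0w. With the GC trend of each library removed, 61 were called (32 higher, 29 lower). The mitochondrial share was 12.8% ± 1.77 (SD, n = 3) at 8w pw1, above every 0w and 4w pw1 library. Xist was at 3221 to 5718 CPM at 8w pw1 and lower at 4w pw1 (log2 difference -3.32, adjusted p = 0.0495, edgeR). The part of either in these calls was not tested. Without library 3 or 4 of 4w pw1, or library 2 of 8w pw1, 0 genes were called, without library 3 of 8w pw1 40 and without its library 4 138.

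By the smallest p, S100a11, a calcium-binding protein of keratinocytes, was at 486 to 831 CPM at 4w pw1 and at 144 to 219 CPM at 8w pw1. Atp6v0e, a subunit of the proton pump of acidic organelles, was at 415 to 637 CPM against 125 to 140 CPM, and Eif6, a factor of ribosome assembly, at 290 to 450 CPM against 90.1 to 111 CPM. On the lower side Shprh, a ubiquitin ligase of DNA repair, was at 28.4 to 44.5 CPM against 172 to 306 CPM, and the host transcript Mir99ahg at 52.5 to 78.5 CPM against 352 to 438 CPM. Ribosomal protein genes (24 of 75) and nuclear genes of oxidative phosphorylation (14 of 50) were called higher at 4w pw1 and 0 of either lower, against 1.92% and 1.77% of all genes tested. Mitochondrially encoded genes (3 of 13) were called lower. These counts come from the fit with 527 calls, which fell to 61 with the GC trend removed and to 0 with 2 or 5 surrogate variables, so nothing is read from them about the lists.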

How the data were processed

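Mini-bulk RNA-seq libraries of Lrig1 GL cells were analysed from deposited counts. Per the submitters' processing notes, reads were trimmed with Trim Galore 0.5.0, aligned with HISAT2 2.2.01 to GRCm38 (mm10) and counted with featureCounts 1.6.12. The authors deposited whole-number counts per gene name, without normalization. Samples were grouped by the labels, and the members and gene lists were chosen with earlier results of these data known.

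In R 4.3.3, edgeR 4.0.16 removed low genes (filterByExpr, minimum count 10), scaled 18 libraries of 6 time points by TMM and fitted 1 quasi-likelihood model (12 residual degrees of freedom, prior count 0.125), as the study used edgeR. CPM uses library totals (1264142 to 2266757 counts in the 6 libraries) times their TMM factors. A call needed both a p under 0.05 after Benjamini-Hochberg adjustment and a fold change above 1 in size on the log2 scale. The pairing check correlated deviations from group means. Named genes were those called with a mean of at least 10 counts and groups that did not overlap (up to 12 per direction by p; if fewer, up to 6 not called), called list members, the 3 most abundant of each list, and 3 per direction for other times. Names with Gm or Rik were counted only, and 1 gene that the rule names is not reported here. The method was tested on simulated data. The table for Lgr5 cells was not used here. Alternatives changed the scaling, filter, test, samples fitted, surrogate variables, GC correction, replicate block and libraries, with DESeq2 1.42.0, limma 3.58.1 and sva 3.50.0. GENCODE M21, GRCm38, gave positions and GC content (99.6% of genes tested). Genes named after their values were seen were A630052C17Rik, S100a8, Tslp, Car2, Stfa1, Krt6b, Krt16, Fabp5, Mt4, Fst, Sostdc1, Gata6, Far2, Scd1, Postn, Lamb3, Grem1, Tcf7l2, Lhx2, Lgr5, Fosl2, Egr3, Klf5, Gja1, Tpm4, Snai2, Vangl2, Rnf43, Pfkl, Slc16a3, Slc2a1 and Jarid2. Krt24, Wif1, Teddm3, Krt23, Ly6a, Pfkfb3, P4ha2 and Fosl1 were also named afterwards and are not among the genes followed under the alternatives.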

Additional observations from a re-analysis of the deposited data

How the results depend on the processing

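With 3 libraries of 150 cells per time point, calls rest on few counts. Between 4w pw1 and 0w, 6 genes were called; the likelihood ratio test gave 77, DESeq2 118, limma-voom 0, a fit of only these time points 0, 5 estimated surrogate variables 3, and leaving out each library 0 to 18. Under the replicate block on column numbers 0 were called. Same-numbered libraries deviated together with r = 0.0204 and 0.022, within the range of differently numbered ones (-0.0549 to 0.0401). With 2 such pairs, this cannot decide whether the numbers pair the libraries. The block gave 0 for 4w pw1 minus 1w pw1 and minus 2w pw1, and 0 for 4w pw1 minus 8w pw1. Without the 8w pw1 libraries, a setting chosen after seeing the data, 4 were called. Against 1w pw1 (0 called, 0 to 0 without each library) the likelihood ratio test gave 47, DESeq2 114, limma-voom 1 and estimated surrogate variables 1. Against 2w pw1 (0, and 0 to 0) the likelihood ratio test gave 8, DESeq2 13 and GC correction 1. Against 8w pw1 (527) the values were 346 with no filter, 1291 by the likelihood ratio test, 1534 by DESeq2, 1242 by limma-voom, 61 with GC correction, 0 with 5 or 2 surrogate variables and 0 to 463 without each library. The difference in mitochondrial share, 1.22 percentage points, ran from -0.22 to 2.21. The cause of these shifts was not tested. Leaving out a library also lowers the group size of the filter, and 15178 to 15430 genes were then tested. Over 140 named genes, 2950 of 3054 values under alternatives kept direction and side of the threshold, 56 lost and 48 gained a call and 0 reversed with a call. Of 279 list medians under alternatives, 53 moved by at least the SD of the list's median change among the 4w pw1 libraries. That SD does not hold the spread of the 0w libraries.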
